A study of Mus musculus with 2 samples.

Results

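A 3 Mb stretch of mouse chromosome 5, whose first array probe starts at 118028106 and whose last ends at 120971761 in the mm8 build, was represented by 362 probes, which formed 82 of the 21369 probe runs on the whole array. A run is a set of probes in which each follows the last at a gap of at most 500 bp. The stretch was chosen by the measured P21 over P0 log ratios themselves, for gains in its first 1 Mb and losses in its last 1 Mb, so its ratios are given below as a description and without a test of their own. The values fit that name only in part, since the last 1 Mb also held 2 of the larger gains and averaged close to 0. Each of the 2 arrays hybridised hypothalamic DNA of female mice at postnatal day 21 (P21) together with that of newborn females (P0). Both ages were non-agouti, of mixed C57BL/6J and C3H/HeJ background, per the labels, which state neither how many animals gave the DNA nor whether it was pooled. On array A the P0 DNA carried Cy5 and the P21 DNA Cy3, and on array B the dyes were exchanged. The arrays are called biological replicates in the design text, and the spread between them is the only replicate error here, from n = 2.

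As background, DNA methylation in mammals sits mostly on the cytosine of CG pairs and is rewritten while tissues mature after birth, a period in which the hypothalamus wires the circuits for feeding, growth and stress. The assay amplifies fragments between CCCGGG sites. SmaI first removes unmethylated sites by a blunt cut, and XmaI then opens the methylated sites with an overhang to which an adaptor can be ligated. More signal at P21 than at P0 therefore stands for more amplifiable fragments with methylated ends. A fragment needs both ends methylated, and the ratio is not a methylation percentage. In bulk tissue a different mix of cells and a change within cells cannot be told apart, and such a ratio compares places within the array without giving an absolute level. The files pair no probe with a gene name or a sequence, and the gene table at hand belongs to another build, so runs are named by position only.

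Raised signal dominated the first 1 Mb, and the last 1 Mb mixed a few large gains with smaller, more numerous losses. Of the 82 runs, 73 kept at least 2 usable probes and entered the fit across the array (limma, adjusted p under 0.05 over 18761 runs). That fit called 15 of the 73 higher at P21 and 7 lower. Across the array it called 7.65% of runs higher and 3.99% lower, and because the stretch was picked on this contrast, nothing is read from the difference. By 1 Mb part, 10 of 24 tested runs were called higher and 0 lower in the first, 3 of 14 higher and 1 lower in the second, and 2 of 35 higher and 6 lower in the last. With normexp background correction (offset 50) and loess the calls were 8 higher and 5 lower in the stretch and 1078 and 325 on the array. With normexp and no loess they were 3 and 0, against 278 and 2. A rule of size asked for a change of at least 2-fold in the mean and at least 1.5-fold in the same direction on each array. It was met by 9 runs upwards and 1 downwards, beside 3.71% and 0.501% of all tested runs on the array. Of the 9 raised runs, 5 lay in the first part, 2 in the second and 2 in the last, where the single lowered run also lay.

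**Figure D1:**
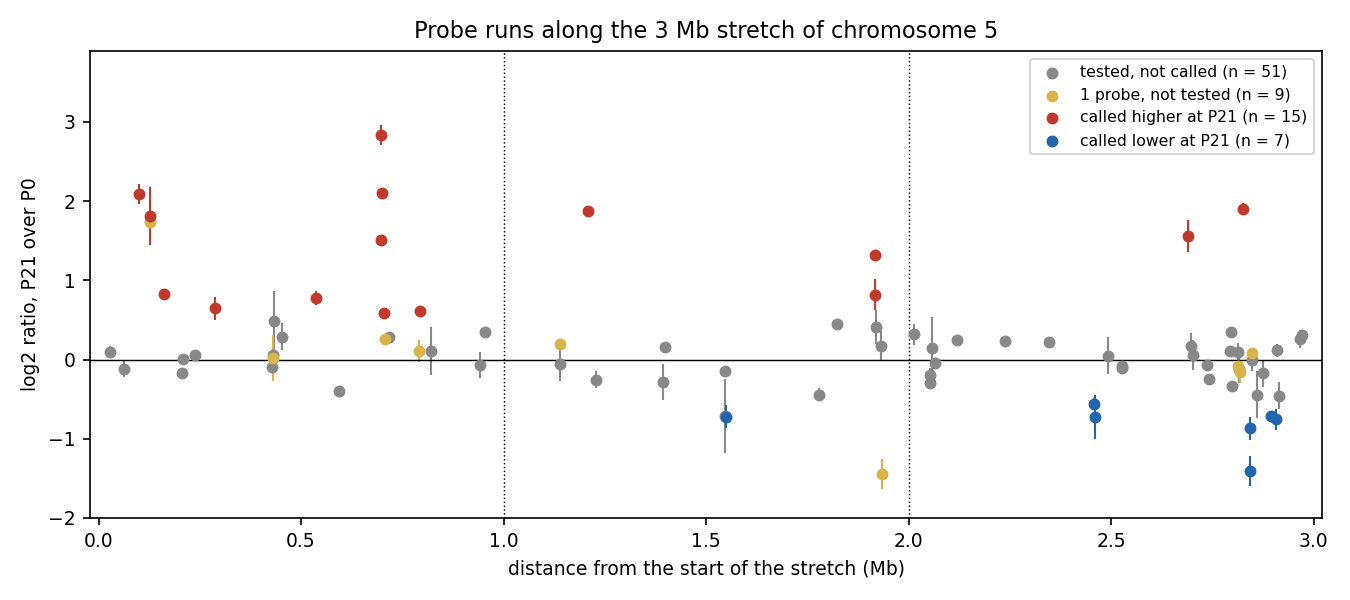
Log2 ratio of P21 over P0 for the 82 runs by distance from the start of the stretch in Mb: points are means of both arrays, vertical lines join the values of arrays A and B, and dotted lines part the 1 Mb windows. Called gains (15, red) gather in the first 1 Mb with a peak of 2.84, while called losses (7, blue) lie mostly in the last 1 Mb and reach -1.41.

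Averaged over its tested runs, the first part had a log2 ratio of 0.61 on both arrays. The second part averaged 0.26 (A) and 0.11 (B), or 0.19 ± 0.11 (SD, n = 2). The last part averaged -0.047 (A) and -0.036 (B), or -0.041 ± 0.0076 (SD, n = 2). The first part thus stood above 0 on both arrays, and the last part was close to 0 on both, with gains and losses of opposite sign in its mean. The net sign of the last part changed with how its probes were averaged: the mean was 0.04 when each probe counted once and 0.13 when only runs of at least 4 probes entered. With runs of at least 4 probes the first part averaged 0.31 and the second 0.52, so the order of those parts turned. Medians over the tested runs were 0.32, 0.052 and -0.045 from the first part to the last, against -0.025 for all tested runs of the array. In the first part 17 of 24 tested runs were above 0 on both arrays and 4 below 0 on both. In the last part 12 of 35 were above and 17 below. The first minus the last part gave 0.66 (A) and 0.65 (B), but 0.44 and 0.21 with normexp and loess, a mean of 0.33.

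By the deposited log ratios, the strongest gain was a cluster of 3 runs within 2780 bp, from 118696574 to 118699353. The first, from 118696574 to 118697139, had processed signals of 114 (A) and 91.7 (B) at P0, and of 661 and 677 at P21 (medians over its 3 probes). Both P21 values lay above both P0 values, which a ratio of this size favours. The log2 ratio was 2.84 ± 0.17 (SD, n = 2), a 7.15-fold difference. The run from 118698622 to 118699353 rose from 85.3 and 96.5 at P0 to 505 and 457 at P21, or 2.10 ± 0.067 on the log2 scale. Between them, the pair of probes from 118697915 to 118698108 had a log2 ratio of 1.51 ± 0.023. Its 2 probes, 98 bp apart, differed from each other on both arrays: the first had 0.76 (A) and 0.96 (B), the second 2.28 and 2.02. All 8 probes of the cluster were higher at P21 on both arrays. P0 was well above background at all 8 probes on both arrays. Normexp and loess lowered the ratios to 1.24, 0.74 and 0.87, where none of the 3 runs was called. After a gap of 5855 bp, from 118705208 to 118705966, the log2 ratio was 0.59 ± 0.085 (0.38 and not called with normexp and loess), and a lone probe at 118706556 had 0.25.

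Another strong gain lay nearer the start of the first part, from 118098948 to 118099730. Its P0 signals were 2569.7 (A) and 2035 (B), against 11066 and 9184 at P21. The ages did not overlap, which a ratio of this size favours. The log2 ratio of 2.09 ± 0.17 (4.26-fold) kept its call in all 13 alternatives, at 1.86 with normexp and loess. Some of these alternatives, such as no centring or the authors' value table, leave the ratios almost unchanged. After a gap of 26403 bp, the run from 118126133 to 118126859 had P0 signals of 17.4 and 28.0 against 79.1 and 69.7 at P21. P0 was well above background in 1 of 6 spots, and 2 of its 3 probes were not so on either array. With P0 set no lower than the lowest signal well above background, the bound on the mean of both arrays was 3.1-fold higher at P21. It was taken on processed signals adjusted by loess and scaled between arrays. It is not a minimum for each array or each setting. The log2 ratio as measured was 2.17 (A) and 1.44 (B), and normexp and loess gave 0.35 with no call. The lone probe beside it, at 118127408, had 1.73 (A) and 1.74 (B) at P0 signals of 93.8 and 94.0. The next run, from 118162041 to 118162241, had 0.83 ± 0.054. Together these 4 runs held 11 probes over 63294 bp, and all 11 were higher at P21 on both arrays.

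The remaining called runs of the first part changed by less. The run from 118536221 to 118536513 had signals of 19597 (A) and 16139 (B) at P0 and 33145 and 27372 at P21, a log2 ratio of 0.78 ± 0.13. The 7-probe run from 118792742 to 118794017 had 0.61 ± 0.059, with each of its 7 probes higher on both arrays. Its call was lost with normexp (0.31 with loess and 0.13 without) and with medians of probes. Between the gains lay runs near 0, such as the 8-probe run from 118237595 to 118238574 (0.06 ± 0.077) and the run from 118208612 to 118209616 (0.01 on each array). The 14 runs of this part that were not called ranged from -0.40 to 0.48. The 10 called runs lay within 695070 bp.

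A 15-probe run from 118287587 to 118289535 showed a step inside a single run. Its first 7 probes, over 118287587 to 118288378, averaged 0.97 (A) and 1.48 (B). The next 4, starting at 118288499, averaged 0.38 and 0.27, and the last 4, from 118289220, averaged -0.20 and 0.12. The segments were delimited after the values were seen. On both arrays the 7 leading probes were above every one of the last 4, and all 15 probes were well above background at both ages on both arrays. Averaged over the run the log2 ratio was 0.65 ± 0.21, which describes neither end of it. With normexp and loess that mean was 0.48. Its call was lost with normexp and no loess and with medians of probes. Whether the run spans more than 1 restriction fragment was not tested, since no mm8 sequence was used here.

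**Figure D2:**
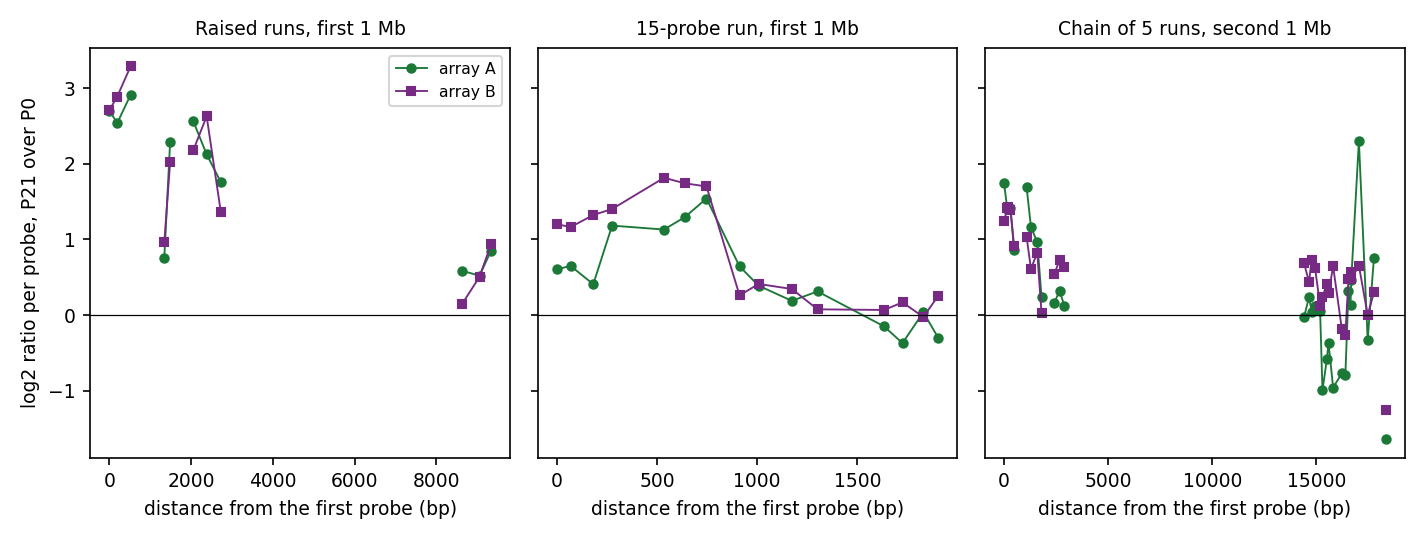
Log2 ratio of P21 over P0 for single probes (array A circles, array B squares, lines join probes of a run) by distance in bp from the first probe of each panel. Left, the cluster of raised runs and the run that follows; middle, the 15-probe run with its fall from a mean of 1.22 in the first 7 probes to -0.041 in the last 4; right, the chain of 5 runs in the second 1 Mb, whose single probes on the longest run disagree between arrays.

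The second 1 Mb held 2 places with large gains. The run from 119207403 to 119208228 stood alone, 67010 bp beyond the run before it. Its signals were 1606 (A) and 1258 (B) at P0 and 6339 and 4289 at P21, with a log2 ratio of 1.88 ± 0.023, and the call held in all 13 alternatives. The other place was a chain of 5 runs from 119916678 to 119935060, along which the mean ratio declined with position, as noticed after the values were seen. It began with 1.32 ± 0.062 over 5 probes at 119916678 to 119917218, where signals rose from 2769.6 and 2172 to 7361 and 5853. It went on with 0.82 ± 0.28 at 119917757 to 119918536 and 0.42 ± 0.30 at 119919084 to 119919635. All 12 probes of these first 3 runs, within 2958 bp, were higher at P21 on both arrays. The second run (109 and 151 at P0) lost its call with normexp and loess, at 0.38.

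The chain ended with a long run near 0 and a lone lowered probe. The 18-probe run from 119931086 to 119934499 averaged 0.17 ± 0.28 over 17 usable probes, with -0.025 (A) and 0.36 (B). Its arrays parted most in the 6 probes from 119931969 to 119933126, which averaged -0.75 (A) and 0.19 (B). The probe at 119935004 had -1.64 and -1.26, but its P21 signal was near background on both arrays and its P0 signal exceeded background clearly on 1 of 2, so no fold is given. The only called loss of this 1 Mb was the pair of probes from 119549222 to 119549602 (-0.72 ± 0.20), with signals of 200 and 173 at P0 and 133 and 96.6 at P21. Together with its neighbours from 119546519 it formed a trio of runs within 3084 bp. In the trio 7 of 8 probes were lower on both arrays, and the middle run, at 119547529, had -0.25 (A) and -1.18 (B). The call on the pair was lost in 7 of 13 alternatives, including normexp and loess (-0.20).

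In the last 1 Mb the mean ratios of the 2 gains were larger in size than those of any loss. The smaller gain (1.56 ± 0.29) and the largest loss (-1.41 ± 0.27) differed by less than their spread. With normexp and no loess their order turned, at 0.69 for that gain and -0.99 for that loss. The 8-probe run from 120826207 to 120827577 had signals of 1863 (A) and 1590.2 (B) at P0 and 6742 and 5991 at P21. All 8 probes were higher on both arrays, the log2 ratio was 1.90 ± 0.11 (3.72-fold), and the call held in all 13 alternatives. The 4-probe run from 120690618 to 120691592 had 1.56 ± 0.29, rising from 220.0 and 249.8 to 763 and 599. With normexp and loess it was at 0.86 and no longer called. The runs that followed the second of these averaged near 0: the 8-probe run that starts at 120696050 had 0.17 and the one at 120700995 had 0.05. The 0.17 joins opposite signs. The first 2 probes of that run averaged -0.53, and the other 6 averaged 0.41 and were all higher on both arrays. This split was made after the values were seen.

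The losses of the last part lay in 2 groups. The pair of runs from 120458371 to 120460502 had log2 ratios of -0.56 ± 0.11 and -0.73 ± 0.39, and all 7 of their probes were lower on both arrays. Neither was called with normexp and no loess (-0.38 and -0.50), with medians of probes or with the trend and robust settings, and the second was also lost at gaps of at most 250 bp. The first of these had signals of 2079 and 2262 at P0 and 1690 and 1281 at P21, and the second 1266 and 1422 at P0 and 970 and 683 at P21. The other 4 called losses lay between 120843041 and 120908671, over 65631 bp that also held 3 tested runs without a call. These limits were set at called losses after the values were seen, so the share of losses between them is built in. The probe pair from 120843855 to 120844011 had 338 and 305 at P0 and 109 and 131 at P21, a log2 ratio of -1.41 ± 0.27 or 2.65-fold lower. With normexp and loess it was at -0.59 and no longer called, and without loess its call was lost too, at -0.99. Its neighbour from 120843041 to 120843157 was called lower at -0.87, but at P21 none of its spots was well above background and at P0 1 of 4 was, so no fold is stated. A gap of 15464 bp parted this pair of losses from the 8-probe gain at 120826207.

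A loss at high signal was the run from 120894320 to 120895058, with 31114 (A) and 33722 (B) at P0 against 19094 and 21480 at P21. Its log2 ratio was -0.71 ± 0.091, and -0.78 with normexp and loess, where it was still called. It was not called with normexp and no loess (-0.52), nor with the trend and robust settings of limma. The run from 120908113 to 120908671 had -0.75 ± 0.19 at P0 signals of 272 and 266, and -0.28 with no call with normexp and loess. It was followed 502 bp later by an 11-probe run at 0.12, and joining the pair at gaps of up to 1000 bp left -0.069 and no call. An 8-probe run from 120912992 to 120914434 was at -0.46 ± 0.24 with 7 of 8 probes lower on both arrays, yet it was not called. Opposite signs also met between 120796187 and 120800448, where a 9-probe run had 0.35 ± 0.066 and the 11-probe run after it -0.34 ± 0.047. Neither was called. Before all of these, the 8 runs from 120012871 to 120346887 contained no call and ranged from -0.30 to 0.32.

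**Figure D3:**
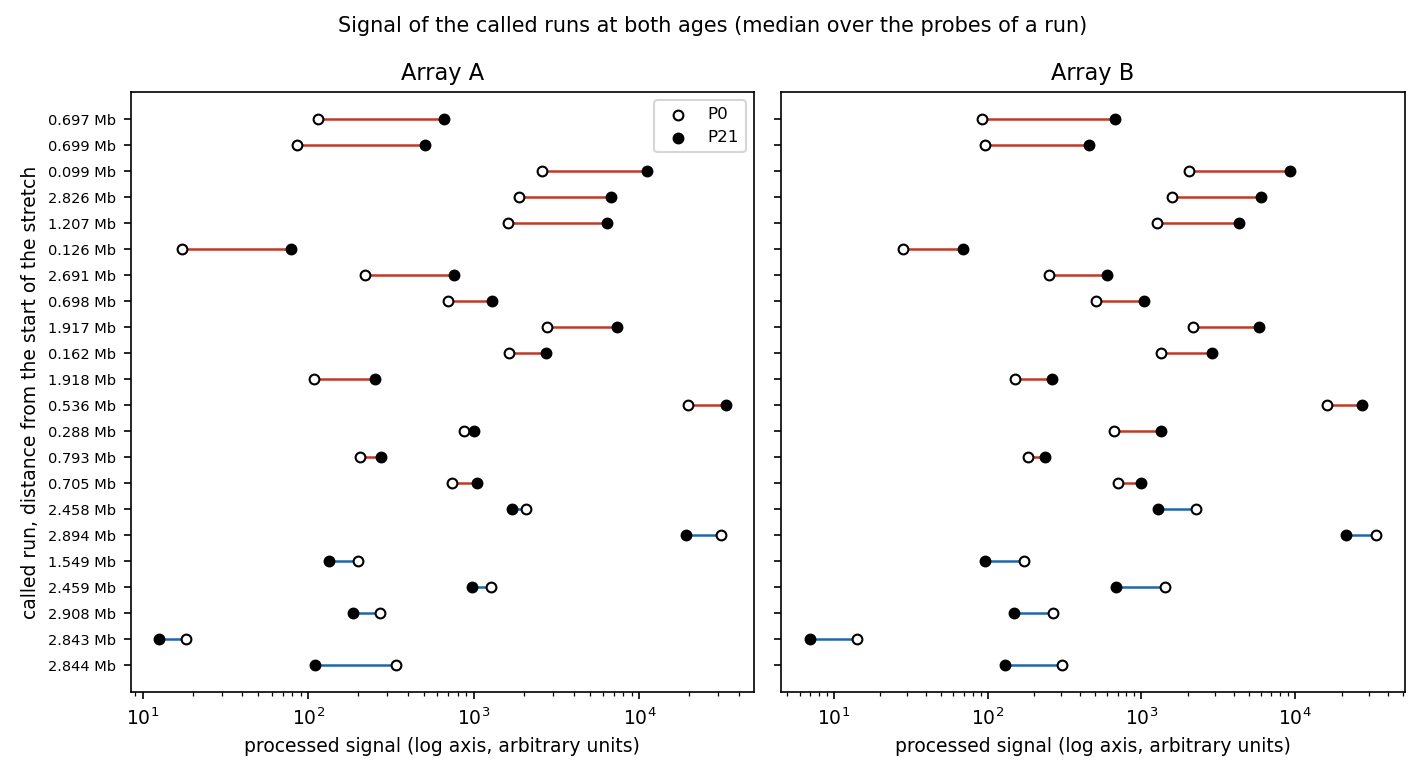
Processed signal of the 22 called runs at P0 (open) and P21 (filled) on each array (log axis, median over the probes of a run), ordered by mean log2 ratio and labelled by distance from the start of the stretch. Gains (red lines) and losses (blue lines) both span low to high signals, and P21 lies on the same side of P0 on both arrays in every called run, which the call favours.

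Called gains of the stretch were larger in size than its called losses. On the whole array, too, the size rule was met by 696 runs upwards and 94 downwards, beside 1435 called higher and 749 lower. The lean was thus not particular to the stretch. The 15 raised runs had log2 ratios from 0.59 to 2.84 with a median of 1.51 (also 1.51 with the run at 118126133 at its bound), and the 7 lowered ones from -1.41 to -0.56 with a median of -0.73. Raised runs held 2 to 15 usable probes (median 4) and lowered runs 2 to 4 (median 3). The 10 raised runs of the first part and the 6 lowered runs of the last part both had a median of 3. Of the 72 probes in raised runs 68 were higher on both arrays and 0 lower on both, and all 19 probes in lowered runs were lower on both. The call rests on the means of these same probes and favours such agreement, so it is no support for the calls. P0 signals of raised runs ran from 17.4 to 19597 on array A and those of lowered runs from 18.3 to 31114. With normexp and loess 7 of the 15 gains and 3 of the 7 losses kept their call. With normexp and no loess 3 and 0 did, with medians of probes 12 and 3, and with trend and robust settings in limma 15 and 1. An offset shrinks the ratios of low signals by construction, and the part of background in these ratios was not tested.

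Because a call with 2 arrays favours runs on which they agree, the likeness of arrays is given over all tested runs. Across the 73 tested runs Pearson's r between arrays was 0.920 (Spearman's rho 0.831), against 0.726 (rho 0.499) over all 18761 tested runs. Runs of an array share its hybridisation and are not independent replicates, and strong ratios on both arrays, for which the stretch was picked, raise r. Signs differed between arrays in 11 of the 73, and the median absolute difference was 0.17 log2 units. The 3 runs that differed most had medians under 50 at both ages. At 119547529 to 119548437 the arrays had -0.25 and -1.18, at 120057704 to 120059764 -0.24 and 0.54, and at 118432138 to 118432915 0.10 and 0.87. At the last of these no usable probe cleared background on both arrays at either age.

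**Figure D4:**
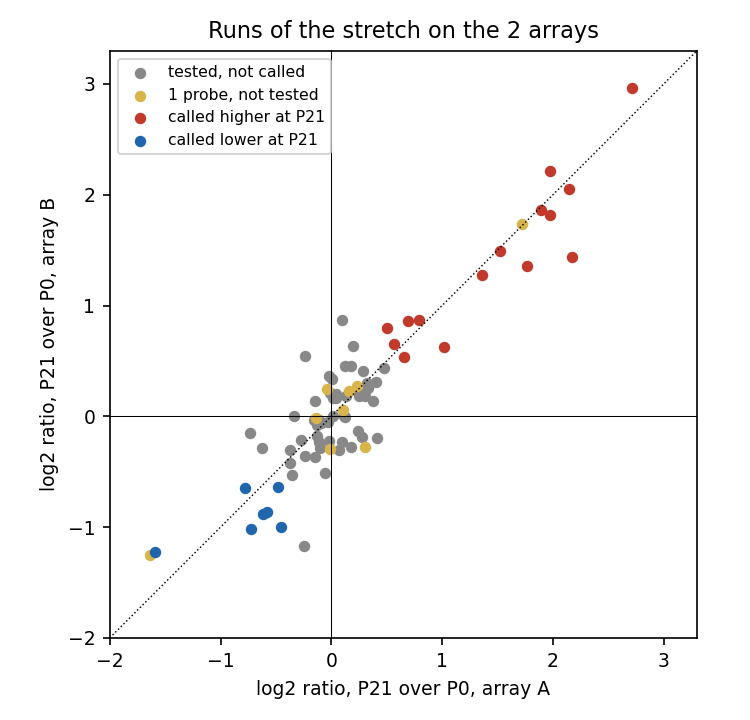
Log2 ratio of P21 over P0 on array B against array A for the 82 runs, coloured by call, with the line of equality dotted. Called runs lie near the line, which the call itself favours (r = 0.920 over the 73 tested runs), and the runs that were not called scatter around 0.

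Likeness between neighbours was short in range. Among 14 pairs of successive tested runs over 500 and up to 2000 bp apart, 11 had the same sign and the correlation was 0.837. In 24 pairs up to 20000 bp apart 13 had the same sign, and in 34 pairs farther apart 14 did, with correlations of -0.0030 and 0.099. Over the whole array the first class had 70.1% of pairs with the same sign (r = 0.457), the middle 53.3% (r = 0.063) and the last 51.6% (r = 0.036). The short range was thus a feature of the whole array. Pairs share runs and are not independent, and the stretch was picked for strong ratios, so nothing is read from its higher correlation in the first class. Joining runs at gaps of up to 2000 bp left 12 raised and 3 lowered places called in the stretch. The share called on the array at that gap is not given here, so nothing is read from this count.

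Each flank held fewer called gains than the 15 of the stretch, which the way the stretch was picked favours. Called losses were about as many as its 7, among more tested runs. In the 3 Mb before the stretch 4 of 116 tested runs were called higher and 7 lower, with ratios from -0.95 to 0.90. In the 3 Mb after it 6 of 94 were called higher and 6 lower, and the highest run reached 2.58. The rest of chromosome 5 had 80 of 1437 tested runs called higher (5.57%) and 65 lower (4.52%). Of 670 windows of 1 Mb with at least 10 tested runs, the first 1 Mb had the highest mean log2 ratio (0.61, median of windows 0.0029) and the last window had 6 losses, against a maximum of 7. These ranks describe how the stretch was picked and are not a test of it. The median distance between runs was 12141 bp in the stretch against 30676 bp on the array. The flanks were alike in this, at 8302 bp in the 3 Mb before and 13604 bp in the 3 Mb after. From the first part to the last the median was 26608, 15218.5 and 6261.5 bp, so the first part was covered about as sparsely as the array.

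At the borders the values were small on both sides. The first run inside, at 118028106, had 0.09 and the nearest tested run outside it, at 117962726, had 0.12. The last run inside, at 120970769, had 0.31 and the first outside, at 121016662, had 0.05. The nearest called run before the first call of the stretch ended 945041 bp ahead of it, and the next called run after the last one began 358357 bp beyond it.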

How the data were processed

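Per the file headers, Feature Extraction 10.5.1.1 produced the scanner tables and probe positions are mm8, while 9.1.3.1 is the version in the submitters' processing notes. Log10 ratios (red over green, background-subtracted and dye-normalised by the authors' software) were taken as deposited. The processed, spot and background signals are deposited as linear intensity values, and other deposited columns are flags of 0 or 1. The headers of both arrays give the same slide, by the stem of the barcode, and the same scan date. Here ratios were turned to P21 over P0, converted to log2, centred on each array's median and averaged by probe and run. Control spots and 800 spots flagged as outliers were left out (4 of the 362 probes in the stretch). Signals are medians over a run's usable probes. limma 3.58.1 in R 4.3.3 tested runs of at least 2 probes against 0, two-sided, with Benjamini-Hochberg adjustment. With 1 residual degree of freedom its threshold is approximate, and the code was tested on simulated data. p-values measure only the spread between these 2 arrays, whose number limits the precision. Named runs are those called, the extremes and borders of the parts and the 3 that differed most between arrays; others were chosen after their values were seen. The stretch, its parts and these choices were made with earlier results of these data known. The authors' value table held the same log10 ratios, with array A turned, a median of 0 and a largest difference of 0.00496. Alternatives were other background, dye, centring, filter, run and limma settings and leaving out each array. Some could hardly move a call, since the uncentred medians were 0 on both arrays and the authors' table held the same ratios. Other gap settings leave a run without near neighbours almost as it was. Counts of alternatives in which a call held are therefore not counts of independent checks.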

Additional observations from a re-analysis of the deposited data

How the results depend on the processing

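The call counts depended on background correction. With normexp and loess 1403 runs were called across the array, 13 in the stretch, and 4 met the size rule; without loess these were 280, 3 and 4. Medians of probes gave 1251 calls across the array. Counts rose to 2740 (26 in the stretch) with loess on the processed signals and 2934 (24) with probes well above background, against 2184 (22). Gaps of at most 250 bp gave 2416 across the array and left 22 in the stretch. The filter and the gap also change which runs are tested, so their counts have other totals. The first part's mean log2 ratio was 0.33 and 0.28 with normexp (with and without loess), 0.62 with loess on the processed signals, 0.62 centred on the mode, 0.61 with outliers kept, 0.54 with probes well above background, 0.56, 0.49 and 0.50 at gaps of at most 250, 1000 and 2000 bp, 0.60 with medians, 0.60 with runs of 1 probe, 0.31 with runs of at least 4 probes, 0.52 with each probe counted once and 0.063 without its 10 called runs. The second part's was 0.046 (normexp without loess), 0.34 (250 bp) and 0.52 (at least 4 probes). The last part's was -0.00042 and -0.033 with normexp, -0.026 with probes well above background, -0.029 with medians and -0.15 without its 2 gains. It turned positive without its 6 losses (0.12) and without all 8 calls (0.0046), where leaving out gains or losses alone shifts the mean by construction, and at 250 bp (0.058), 1000 and 2000 bp (0.040 each), at least 4 probes (0.13) and each probe once (0.040). The first minus the last part was 0.33 and 0.31 with normexp, 0.57 above background, 0.50, 0.45 and 0.46 at the 3 gaps, 0.63 with medians, 0.64 with runs of 1 probe, 0.18 with at least 4 probes and 0.48 with each probe once. The run at 120057704 turned to -0.0017 and -0.38 with normexp, and ranged from -0.24 to 0.54 when an array was left out; that at 118432138 turned to -0.071, -0.43 and, at 250 bp, -0.36. The cause of these shifts was not tested, apart from the runs, probes or gaps each setting changes. The 2000 bp gap, the calls inside the stretch and the means without called runs were chosen after seeing the data. Call counts without an array could not be given, as no residual degree of freedom is left, and a slide block was not run on 1 slide. The ages are paired within each array in every fit, since the ratio of P21 over P0 is taken per array. Signal over background limits the runs for which fewer spots are well above it.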
